A study of Mus musculus with 19 samples.

Results

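Neurexins, neuroligins and leucine-rich repeat transmembrane proteins (Lrrtm) were examined across the layers of the mouse primary somatosensory cortex (S1) as 9 listed genes, Nrxn2, Nrxn3, Nlgn1, Nlgn2, Nlgn3, Lrrtm1, Lrrtm2, Lrrtm3 and Lrrtm4, out of 24130 Ensembl genes listed in at least 1 of 7 libraries. The genes were taken by name and not by a cut on their values, though with earlier results of these data known. Each of the 9 was listed in all 7 libraries with a mean of at least 1 FPKM (fragments per kilobase of model, scaled to the mapped fragments of the library). Their 33 listed transcripts ran from 7 each for Nrxn2 and Lrrtm4 to a single model each for Nlgn1, Lrrtm1 and Lrrtm2.

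S1 of male C57BL/6 mice (C57BL/6J in the paper's methods) aged 56 days was cut by hand into adjacent segments. These were A (mostly layers 1 to 3), B (mostly layer 4), C and D (mostly layer 5), E (mostly layer 6) and F (mostly layer 6b). Polyadenylated RNA was sequenced without keeping the strand. RNA was pooled from the same 8 mice for each of A, C, D, E and F and from the 4 littermates of either litter among them for B1 and B2, so all segments share animals and segment B alone had replicates (n = 2). The 12 samples of dorsal and lateral cortex were not used here. Segments are bulk tissue with borders set by dissection, and in them fewer cells of a type and less RNA per cell cannot be told apart.

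Neurexins are presynaptic receptors that reach across the synaptic cleft, and each gene gives long (alpha) and short (beta) proteins from separate promoters that share the transmembrane end. Neuroligins and the Lrrtm proteins are postsynaptic ligands of neurexins, with neuroligin 1 known mainly from excitatory synapses, neuroligin 2 from inhibitory synapses and neuroligin 3 from both, and Lrrtm proteins from excitatory synapses. Whether a given pair binds depends in part on small alternative exons, above all the exon at neurexin splice site 4 (SS4), which is read from the same place in long and short transcripts.

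The alternative exons that separate transcript models of Nlgn2 and Nlgn3 are printed because the transcripts further on are described by them, with a share for Nlgn2 alone. They were taken from GENCODE M21 transcripts (GRCm38), and the length of each is a multiple of 3. They are the exon of 51 nt in Nlgn2 (exon 2 of 7 in ENSMUST00000056484, chr11:69830563-69830613, minus strand) and that of 60 nt in Nlgn3 (exon 3 of 7 in ENSMUST00000065858, chrX:101307075-101307134, plus strand), in lower case throughout.
Nlgn2 exon: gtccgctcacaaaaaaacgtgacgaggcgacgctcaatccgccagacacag
Nlgn3 exon: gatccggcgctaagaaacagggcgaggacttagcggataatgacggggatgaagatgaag

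Before the values are given, library A has to be set apart. Transcripts under 1000 nt took 35.9% of its FPKM outside the mitochondrial genome, against 18.1% to 21.8% in the other 6 libraries, and its mean insert was the shortest (164 nt, against 172 to 239 nt). Mitochondrial genes took 21.8% of the gene FPKM in A and 18.2% in B2, against 5.03% to 9.79% elsewhere. Depth was estimated at 31.3 M fragments for A, the lowest, and 74.9 M for B2, the highest. Relative to its own mean over the libraries, the median gene stood at -0.37 log2 in A and at 0.14 in F, and dividing each library by its median ratio to all libraries (median of ratios) removes this shift. Results that rest on A are therefore given with and without it. The summed FPKM of 4 markers of layers 2 and 3 was 146 to 161 in A, B1 and B2, highest in B1, and 25.3 to 53.2 in C to F, so these markers set upper from deep libraries but not A from B, that of 4 layer 6b markers was 382 in F and 4.76 to 70.8 elsewhere, and no marker was at 0 in any library. The 8 oligodendrocyte markers summed to 326 in A, 841 and 850 in B1 and B2, and 1643, 2202, 4090 and 12506 in C, D, E and F, and the part of cell composition in the levels below was not tested.

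The levels of the neurexin and neuroligin genes and of the Lrrtm genes took different courses through the depth of the cortex. Lrrtm2 rose 10.3-fold from A to E, Nrxn2 fell 4.14-fold from A to D with most of the fall above layer 5 (a call that was lost without A), and Nlgn1 was highest in upper layer 5 and lower towards both ends. The other 6 members moved by 1.36 to 2.41 times between their lowest and highest library. Without A the fold between lowest and highest library was 3.31 for Lrrtm2, 1.69 for Nrxn2, 2.25 for Nlgn1 and 1.58 for Nlgn3, which had 2.41 with A. Across all 13164 genes that averaged 1 FPKM or more, the median fold with A included was 2.37. With A, at least 4.31% of these genes had a larger fold than the 10.3 of Lrrtm2. Genes not listed in some library have no finite fold. The 4.31% is therefore a lower limit, and the median may leave those genes out. No such values without A are given for all genes.

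**Figure D1:**
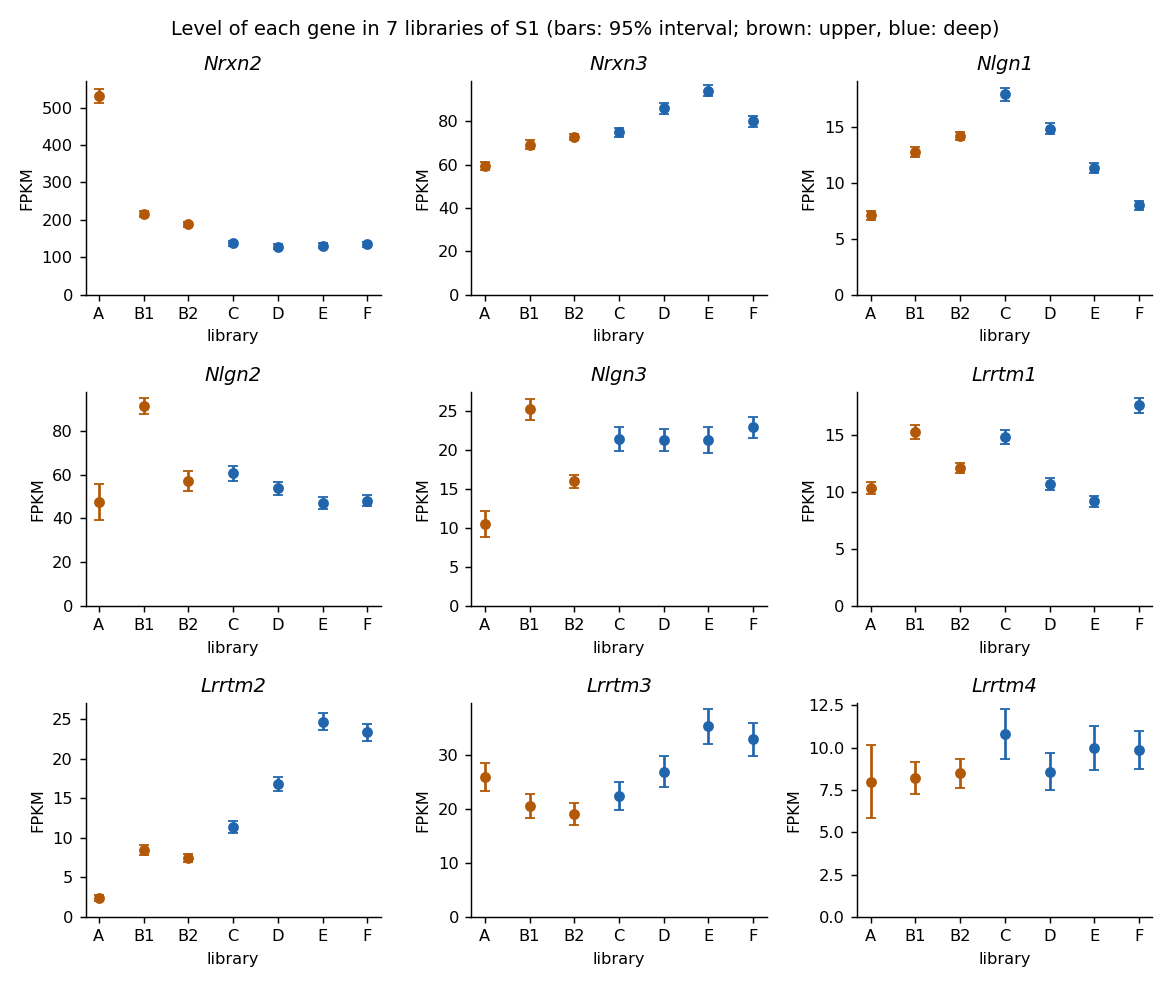
FPKM (y axis, from 0) of each of the 9 genes in the 7 libraries (x axis), with the 95% interval deposited for each estimate; brown points are upper libraries (A, B1, B2) and blue points deep ones (C to F). Nrxn2 stands at 531 in A against 128 to 216 elsewhere, Lrrtm2 climbs from 2.41 to 24.7, and Nlgn1 peaks in C at 17.9.

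Nrxn2 (ENSMUSG00000033768, chromosome 19, 6418765 to 6533217 in mm9, the build of the files) was the most abundant of the 9 genes. Its level was 531 FPKM in A (95% interval 511 to 550), 216 and 188 in B1 and B2, 137 and 128 in C and D, 131 in E and 134 in F. The upper and deep libraries did not overlap, A stood 2.63 times above the mean of B1 and B2, and the intervals of C, D, E and F all overlapped, at 128 to 137 FPKM from layer 5 downwards. The 5 markers of the leptomeninges, the membranes over layer 1, summed to 30.2 FPKM in A and 4.10 to 6.83 elsewhere, and their part in the Nrxn2 level was not tested. B1 and B2 differed by 1.15 times. GC content, 62.4%, was the highest of the 9 genes.

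Nrxn3 (ENSMUSG00000066392, chromosome 12, 89961332 to 91571883) ran the other way on a smaller scale in FPKM as deposited. It was at 59.3 FPKM in A, 69.3 and 72.6 in the replicates B1 and B2, 75.0 in C, 86.0 in D, and 94.2 and 80.0 in E and F. The upper and deep libraries did not overlap as deposited, though the intervals of B2 and C did. Under the median of ratios they overlapped, at 75.0 to 77.1 in A, B1 and B2 and 69.8 to 84.5 in C to F. The share of Nrxn2 in the summed FPKM of both genes, a ratio within a library that no scaling changes, was 89.9% in A, 75.7% and 72.1% in B1 and B2, 64.6% in C, 59.8% in D, then 58.1% in E and 62.6% in F.

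Nlgn1 (ENSMUSG00000063887, chromosome 3, 25330763 to 26032656), the neuroligin of excitatory synapses, was at 7.06 FPKM in A, 12.8 and 14.2 in B1 and B2, 17.9 and 14.8 in C and D, 11.3 in E and 7.96 in F. The level in C was 2.53 times that in A and 2.25 times that in F, and of the 21 pairs of libraries only B2 and D had overlapping intervals. B1 and B2 differed by 1.11 times.

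Nlgn2 (ENSMUSG00000051790, chromosome 11, 69636624 to 69651286), the neuroligin of inhibitory synapses, was the most abundant neuroligin in every library. It was at 47.6 FPKM in A, 91.4 and 56.9 in the replicates B1 and B2, 60.5 in C, 53.7 in D, and 47.1 and 48.1 in E and F. Apart from B1 the 6 libraries lay within 47.1 to 60.5 FPKM, and the replicates of layer 4 differed by 1.60 times, more than any pair of those 6.

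Nlgn3 (ENSMUSG00000031302, chromosome X, 98491178 to 98521302) was at 10.5 FPKM in A, 25.3 and 16.0 in B1 and B2, 21.4 in C, 21.3 in D, then 21.3 in E and 22.9 in F. The 4 deep libraries had overlapping intervals and A was the lowest, while B1 and B2 differed by 1.58 times. The replicates thus set the limit for both Nlgn2 and Nlgn3, and both were higher in B1. Within the summed FPKM of the 3 neuroligins, which removes what they share, the share of Nlgn3 was 16.1% in A, 19.5% and 18.4% in B1 and B2, 21.5% and 23.7% in C and D, 26.7% in E and 29.0% in F. The share of Nlgn2 was 73.0% in A, 70.6% and 65.4% in B1 and B2, and 59.1% to 60.9% in C to F, and that of Nlgn1 was 9.86% to 17.9%.

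Lrrtm2 (ENSMUSG00000071862, on chromosome 18) was the member with the largest range. Its level was 2.41 FPKM in A (95% interval 2.03 to 2.78), 8.48 and 7.45 in B1 and B2, 11.4 and 16.8 in C and D, 24.7 in E (23.6 to 25.8) and 23.3 in F. The upper and deep libraries did not overlap, and 19 of the 21 pairs of libraries had intervals apart, the exceptions being B1 with B2 and E with F. E stood 10.3 times above A and 3.31 times above B2, and the replicates differed by 1.14 times. The 5 markers of striatum, the tissue beneath the cortex, summed to 132 and 182 FPKM in E and F and 41.0 to 85.0 elsewhere. Of these sums Ppp1r1b, also a classical layer marker in the paper, made up 118 and 151. Drd1 and Rgs9 were highest in F and next in E, while Adora2a was at 1.43 in A, 0.894 in E and 5.44 in F. The 5 markers of neurons in general summed to 1110 in A and 1887 to 2567 elsewhere. Among them Snap25, Syt1, Tubb3 and Map2 were lowest in A, but Rbfox3 was highest there (337) and lowest in F (107). The part of both sets in the Lrrtm2 level was not tested. Its only model in the files, of 1545 nt, covers part of the 5673 nt of the GENCODE M21 transcript. Among the 4 Lrrtm genes, the share of Lrrtm2 in their summed FPKM was 5.16% in A, 16.1% and 15.8% in the replicates B1 and B2, 19.2% in C, 26.6% in D, and 31.2% and 27.8% in E and F.

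Lrrtm3 (ENSMUSG00000042846, chromosome 10, 63391220 to 63553025) was the most abundant Lrrtm gene in each library, at 25.9 FPKM in A, 20.6 and 19.1 in B1 and B2, 22.4 in C, 27.0 in D, then 35.4 in E and 33.0 in F. As deposited, E and F were above the other 5 libraries and had overlapping intervals, and A lay level with C and D. Under the median of ratios Lrrtm3 was highest in A at 33.0, followed by 31.7 in E and 28.7 in F. Lrrtm1 (ENSMUSG00000060780, chromosome 6, 77192684 to 77207787) had no single course. It was at 10.4 FPKM in A, 15.3 and 12.1 in B1 and B2, 14.8 and 10.7 in C and D, 9.17 in E and 17.6 in F, so that F, the highest, followed E, the lowest, with a difference of 1.92 times against 1.26 times between B1 and B2. Lrrtm4 (ENSMUSG00000052581, chromosome 6, 79968871 to 80760137) changed least, from 7.98 FPKM in A through 8.22 in B1, 8.48 in B2, 8.59 in D, 9.87 in F and 9.97 in E to 10.8 in C. Of its 21 pairs of libraries 19 had overlapping intervals.

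**Figure D2:**
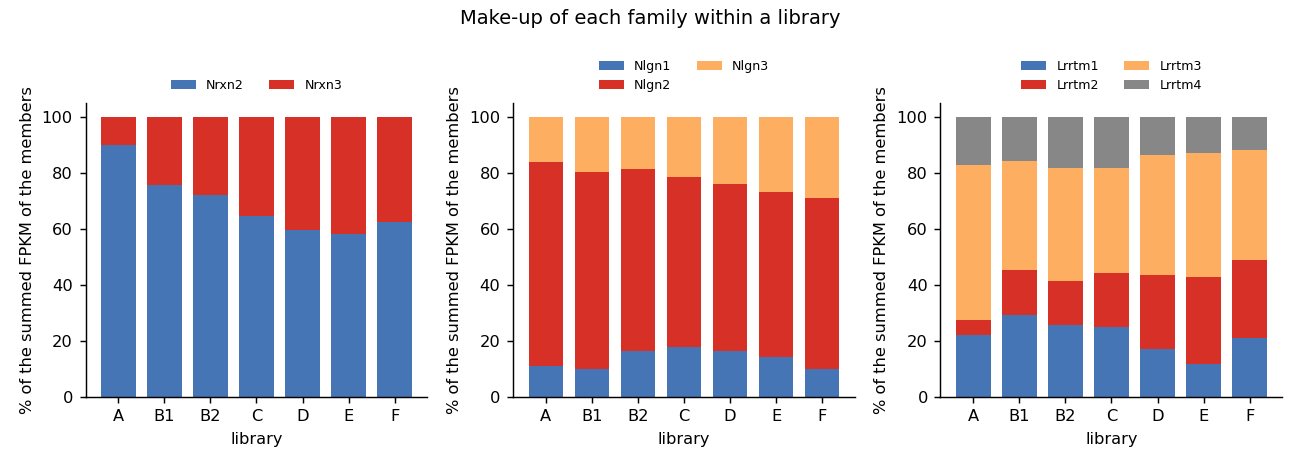
Share of each gene (y axis, % of the summed FPKM of the family members shown) in the 7 libraries (x axis) for the neurexins, the neuroligins and the Lrrtm genes. The Nrxn2 share goes from 89.9% in A to 58.1% in E and the Lrrtm2 share from 5.16% in A to 31.2% in E.

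Lrrtm1, Lrrtm2 and Lrrtm3 lie within Ctnna2, Ctnna1 and Ctnna3, alpha-catenin genes of the opposite strand, while Lrrtm4 lies in none of them. Without strand, reads of host and guest cannot be told apart where they overlap. Ctnna1 was at 5.90 FPKM in A, 11.6 and 11.6 in the replicates B1 and B2, 11.2 in C, 12.002 in D, and 13.1 and 20.5 in E and F, lowest in A as Lrrtm2 was and highest in F, and its part in the Lrrtm2 level was not tested. Ctnna2 was highest in C at 47.9 FPKM and at 35.9 in F, where Lrrtm1 was highest. Ctnna3 had a mean under 1 FPKM and was not tested.

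How the level depended on depth was tested for all 13164 genes with limma, as a linear and a quadratic trend of log2(FPKM + 0.1) over the 6 segments. Fold changes of low genes are understated on this scale. At an adjusted p of 0.05 the trend was called for 3 of the 9 members, Lrrtm2, Nrxn2 and Nlgn1, where 43.7% of all genes tested were called. The members' share of calls, 3 of 9, was thus not above this background. The slope of Lrrtm2 was 0.59 ± 0.05 log2 per segment (SE, limma adjusted p = 0.00272), that of Nrxn2 was -0.32 ± 0.05 (adjusted p = 0.00574), and Nlgn1 had a slope of -0.02 ± 0.04 with a quadratic term of -0.19 (adjusted p = 0.0110). Among the genes called, those with a positive slope made up 35.3% and those with a negative slope 8.36% of all genes tested, and under the median of ratios the split changed from 4648 and 1101 genes to 2311 and 2037. The sign of the slope does not show a steady rise or fall, since a gene can be called for a peak in the middle segments, as Nlgn1 was.

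The remaining 6 members did not pass. Nrxn3 had a slope of 0.10 ± 0.04 (adjusted p = 0.0918) and Lrrtm3 one of 0.14 ± 0.05 (adjusted p = 0.0951). The slope was 0.15 ± 0.07 for Nlgn3 (adjusted p = 0.122), -0.08 ± 0.07 for Nlgn2 (adjusted p = 0.438), 0.06 ± 0.04 for Lrrtm4 (adjusted p = 0.445) and 0.03 ± 0.08 for Lrrtm1 (adjusted p = 0.876). The median slope of all genes was 0.09 and that of the 9 members 0.06, so Nrxn3, Lrrtm3, Nlgn3, Lrrtm4 and Lrrtm1 had slopes near the general shift. Under the median of ratios the median slope of all genes was -0.0015. Nrxn3 then stood at 0.0016, Lrrtm3 and Nlgn3 at 0.05, Lrrtm4 at -0.04 and Lrrtm1 at -0.06. Lrrtm2 at 0.49, Nrxn2 at -0.42 and Nlgn1 at -0.12 were again called.

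Without library A the slope of Lrrtm2 was 0.43 and that of Nlgn1 was -0.17, and both were still called (adjusted p = 0.0123 and 0.0482). Nrxn2 was then at -0.15 and no longer called (adjusted p = 0.0748), so its call rests on A. Without B1 or with B1 and B2 averaged Nlgn3 was called as well. In these settings 7933 and 6987 of all 13164 genes were called, against 5749 in the main fit, so the added call came with more calls throughout. Correcting each library for GC content or for transcript length left the same 3 genes called.

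**Figure D3:**
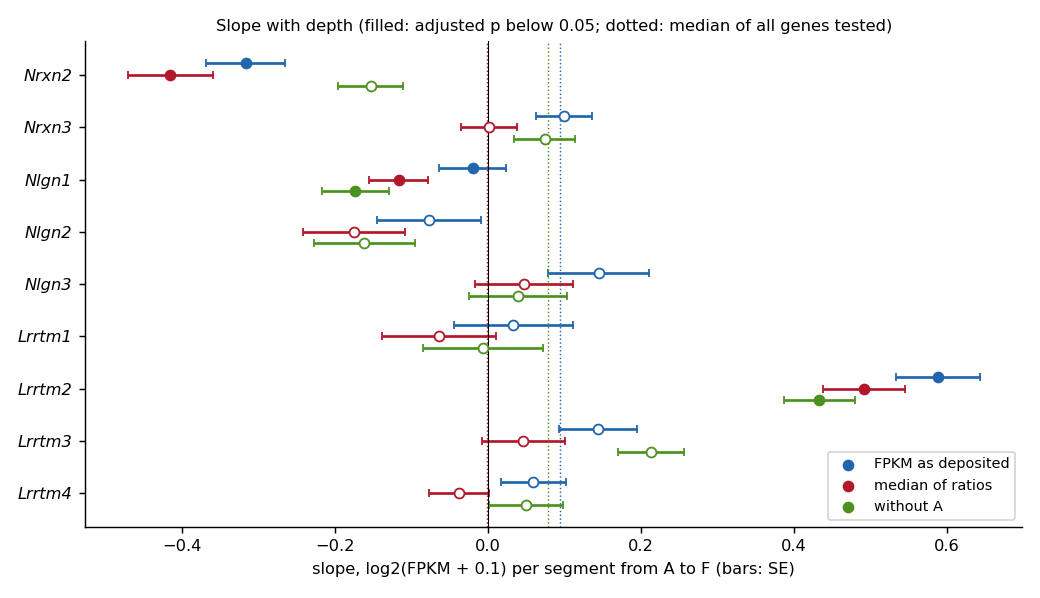
Slope of log2(FPKM + 0.1) per segment from A to F (x axis) with its SE for each gene (y axis), from FPKM as deposited (blue), after scaling by the median of ratios (red) and without library A (green). Filled points have an adjusted p below 0.05 and dotted lines are the medians of all genes tested; Lrrtm2 is filled in all 3 fits, Nrxn2 at -0.15 without A is open.

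A direct comparison of the 4 deep with the 3 upper libraries called 0 of the 9 members and 66 of all 13164 genes (0.501%, with 0.311% higher and 0.19% lower in deep libraries). By this limma test Lrrtm2 was higher in deep libraries by 1.75 ± 0.47 log2 (SE, adjusted p = 0.0920) and Nrxn2 was lower by -1.07 ± 0.35 (adjusted p = 0.101), and these were the 2 members with an unadjusted p below 0.05. Upper and deep libraries did not overlap for 4 members, Nrxn2, Nrxn3, Lrrtm2 and Lrrtm4. Over all genes this held for 36.4% (31.6% higher in deep and 4.79% higher in upper libraries). For Lrrtm4 the gap was that between 8.48 and 8.59 FPKM. Under the median of ratios Nrxn3 and Lrrtm4 overlapped, while Nrxn2 and Lrrtm2 did not. Lrrtm4 was then at 8.90 to 10.1 in upper and 8.01 to 10.3 in deep libraries. By the deposited intervals alone the members differed in 2 (Lrrtm4) to 20 (Nlgn1) of 21 pairs of libraries, or in 136 of 189 pairs over the 9 members (72.0%), against 59.9% over all genes tested. These intervals cover counting and assignment of fragments within a library and not the variation between mice. B1 and B2 were themselves apart for 7499 of the 13164 genes and for 5 of the 9 members.

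Transcripts separate the long from the short forms of Nrxn2. The long models were ENSMUST00000113461 (5505 nt, 20 exons, without the SS4 exon) and ENSMUST00000137166 (6314 nt, 22 exons, with it), which span 114 and 105 kb. The short models were ENSMUST00000113458 (3503 nt, with the SS4 exon) and ENSMUST00000073522 (2960 nt), which span 35.4 and 34.9 kb. ENSMUST00000073522 is not part of GENCODE M21, and after its different ends are allowed for it is shorter than ENSMUST00000113458 by 90 nt, the length of the SS4 exon, so it was taken as the form without the exon.

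Both short transcripts of Nrxn2 had the course of the gene. ENSMUST00000113458 was at 112 FPKM in A, 79.7 and 46.3 in B1 and B2, 40.5 in C, 38.2 in D, then 39.7 in E and 37.2 in F. ENSMUST00000073522 was at 119 FPKM in A, 52.6 and 52.7 in B1 and B2, 35.5 and 25.4 in C and D, 21.0 in E and 21.2 in F. Both were highest in A and had no overlap between upper and deep libraries. No such share over all transcripts is given, and among all genes tested 4.79% were higher in upper libraries without overlap. A short 5′ piece of 547 nt, ENSMUST00000148391, was listed only in D, E and F, at 12.5, 12.7 and 11.02 FPKM.

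The long transcripts of Nrxn2 had another course. ENSMUST00000113461 was at 10.2 to 27.3 FPKM in the 6 libraries other than A, and ENSMUST00000137166, listed from B2 to F, was at 4.05 to 10.9. Their sums were at 27.3 FPKM in B1 and 16.9 in B2, 29.2 and 27.6 in C and D, 22.8 in E and 30.2 in F, and the replicates of layer 4, 10.4 FPKM apart, spanned more than the 4 deep libraries. In A neither was listed. No transcript under 5% of the main transcript of its gene was listed, a limit of 14.2 FPKM for Nrxn2 in A. The listed transcripts of Nrxn2 left 16.0 of the gene's 531 FPKM unassigned there. Were all of this long transcripts, they would make up 6.45% of long and short ones in A. This is no upper bound, since fragments of long transcripts may also have been assigned to the 3′ model ENSMUST00000154580 (283 FPKM in A).

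Among full long and short models, the share of long ones was 0% as listed in A and 17.1% and 14.6% in the replicates B1 and B2. It was 27.7% in C, 30.3% in D, and 27.3% and 34.1% in E and F. The 5′ pieces ENSMUST00000148391 (short, 12.5, 12.7 and 11.02 FPKM in D, E and F) and ENSMUST00000155158 (long, 10.99 and 12.2 in E and F) were left out. No alternative included them. Deep libraries averaged 29.9% ± 3.12 (SD, n = 4) and upper ones 10.6% ± 9.25 (SD, n = 3), a difference of 19.3 percentage points. All deep libraries lay above all upper ones, and the 2-sided exact permutation test gave p = 0.0571, the smallest that 3 against 4 libraries allow (adjusted p = 0.114 over the 2 neurexins). With 6.45% in A the difference was 17.1 points and without A it was 14.0 points, against 2.50 points between B1 and B2.

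The share with the SS4 exon varied less. Over those of the 4 full models of Nrxn2 that were listed, the share that carries the exon was 48.4% in A and 49.9% and 45.7% in B1 and B2. It was 48.9% in C, 51.5% in D, then 52.4% in E and 50.5% in F. The value in A is that of the short models alone, and in B1 the long model with the exon was not listed. The shares of A and B1 thus rest on fewer models than the others. The means of the upper and deep libraries were 2.79 points apart, less than the 4.20 points between B1 and B2. Within the short transcripts alone the share was 48.4% in A, 60.2% and 46.8% in B1 and B2, 53.3% and 60.03% in C and D, 65.4% in E and 63.7% in F, and here the replicates differed by 13.5 points, more than the 8.79 points between the means of deep and upper libraries.

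The remaining large part of Nrxn2 was ENSMUST00000154580, a model of 576 nt in 3 exons near the 3′ end of the gene, which holds none of the exons that separate long from short forms. It was at 283 FPKM in A, 56.6 and 71.8 in the replicates B1 and B2, 31.7 in C, 24.6 in D, and 21.7 and 22.3 in E and F, or 53.4% of the gene in A, 26.2% in B1, 38.2% in B2 and 16.6% to 23.2% in C to F. Without this model Nrxn2 was at 247 FPKM in A, 160 and 116 in B1 and B2, 105 in C, 104 in D, then 109 in E and 112 in F. A was then 2.35 times above C, and the upper libraries still lay above the deep ones, B2 by a narrow gap. Library A is the one in which short models took the largest share of all FPKM, and their part in the Nrxn2 level was not tested.

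For Nrxn3 the models are less complete, and the 2 main ones are not part of GENCODE M21, so their class rests on position and length. The long transcript ENSMUST00000085138 (4770 nt over 1537 kb) was at 12.1 FPKM in A, 29.8 and 22.9 in B1 and B2, 28.0 and 35.2 in C and D, 37.5 in E and 31.0 in F. The other main model, ENSMUST00000110131 (2654 nt over 11.5 kb), holds only the 3′ end, which long and short forms share, and was at 41.6 FPKM in A, 25.5 and 43.1 in the replicates B1 and B2, 31.9 in C, 32.5 in D, and 33.7 and 25.1 in E and F. No complete short model of Nrxn3 was among those listed for the gene, so a share of long against short cannot be given.

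As the nearest measure, the long transcript made up 22.6% of these 2 models in A, 53.9% and 34.7% in B1 and B2, 46.8% in C, 51.9% in D, then 52.7% in E and 55.3% in F. Deep libraries averaged 51.7% ± 3.56 (SD, n = 4) and upper ones 37.0% ± 15.8 (SD, n = 3), with p = 0.229 in the 2-sided exact permutation test (adjusted p = 0.229). The replicates B1 and B2 were 19.2 points apart, more than the difference of 14.6 points between the groups, and without A and B2 the difference turned to -2.21 points. ENSMUST00000110138, a 5′ piece over 128 kb, begins at the start of the gene (89961332), while ENSMUST00000085138 begins at 90033629, so these models do not share a start. The 5′ piece was at 5.55 FPKM in A, 10.1 and 6.65 in B1 and B2, 10.7 and 13.3 in C and D, 17.6 in E and 15.2 in F. It was lowest in the same 2 libraries as ENSMUST00000085138. ENSMUST00000057634, a middle piece of 2865 nt, was not listed in A and B2 and was at 3.90 FPKM in B1, 4.34 and 5.07 in C and D, 5.33 in E and 8.73 in F. Its GENCODE M21 transcript holds the SS4 exon but has 4634 nt, so whether the shorter model holds the exon is not known.

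**Figure D4:**
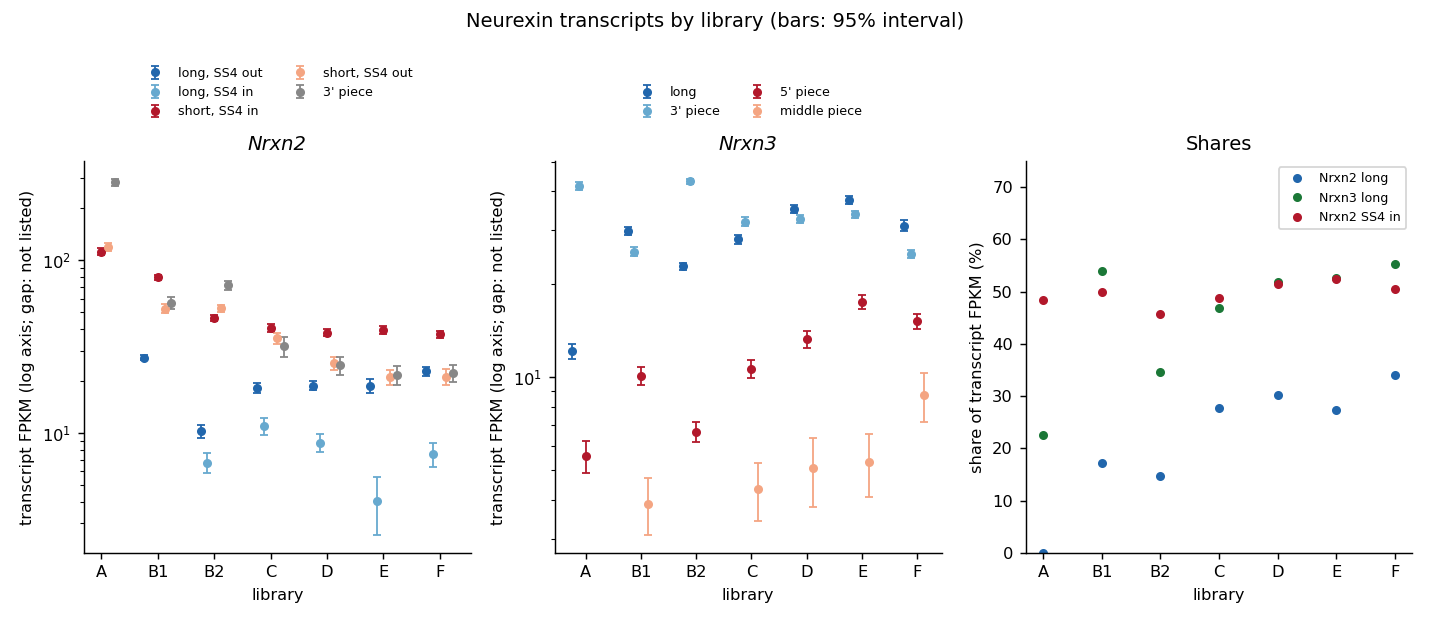
FPKM of the transcripts of Nrxn2 (left, log axis) and Nrxn3 (middle, log axis) in the 7 libraries with 95% intervals, and shares in % (right, from 0) of long transcripts and of the SS4 exon; a gap means not listed. The Nrxn2 long share is 14.6% to 17.1% in B1 and B2 and 27.3% to 34.1% in C to F. The SS4 share, over the full models listed in each library, lies between 45.7% and 52.4%, with short models alone in A and no long model with the exon in B1.

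The same trend test over 19925 transcripts with a mean of at least 1 FPKM called 6 of the 26 member transcripts tested, where 18.6% of all transcripts were called (15.4% with a positive and 3.19% with a negative slope). For Nrxn2 these were ENSMUST00000154580 with a slope of -0.64 ± 0.07 log2 per segment (SE, limma adjusted p = 0.0271), ENSMUST00000073522 with -0.47 ± 0.04 (adjusted p = 0.0271) and ENSMUST00000155158 (adjusted p = 0.0443). ENSMUST00000155158 is a 5′ piece of 618 nt listed only in E and F, at 10.99 and 12.2 FPKM. Elsewhere it was set to 0 because models under 5% of the main transcript are not listed. It passed the filter through E and F alone, so its call depends on the listing limit and gives no support for a trend. The other calls were Lrrtm2 ENSMUST00000091636, Nlgn1 ENSMUST00000075054 and Nrxn3 ENSMUST00000110138 with 0.30 ± 0.06 (adjusted p = 0.0428). The short Nrxn2 model ENSMUST00000113458 (adjusted p = 0.0611) and the long Nrxn3 model ENSMUST00000085138 (adjusted p = 0.0516) did not pass. All 6 calls were lost when any 1 of A, B2, C, D, E or F was left out, since 0 transcripts of the whole table then passed limma's adjusted p, with 4697 to 7748 at an unadjusted p below 0.05.

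The neuroligins and the remaining Lrrtm genes also had more than 1 transcript. For Nlgn2, ENSMUST00000108634 carries the 51-nt exon and was at 20.2 FPKM in A, 59.4 and 26.2 in the replicates B1 and B2, 37.1 in C, 31.7 in D, and 33.2 and 32.1 in E and F. ENSMUST00000094069, which has the ends of ENSMUST00000056484 and is 51 nt shorter, was at 23.1 FPKM in A, 32.0 and 29.0 in B1 and B2, 23.4 in C, 22.0 in D, then 14.0 in E and 16.0 in F. The share of transcripts with the exon was 51.4% in A, 65.0% and 49.0% in B1 and B2, 61.4% and 59.1% in C and D, 70.4% in E and 66.7% in F. B1 and B2 were 16.0 points apart, more than the 9.26 points between the means of deep and upper libraries. For Nlgn3, ENSMUST00000065858 with the 60-nt exon was at 6.64 FPKM in A and 14.0 to 16.2 elsewhere. ENSMUST00000130555, a 5′ piece of 1852 nt without that exon, was not listed in A and B2 and was at 9.01 FPKM in B1, 5.02 and 5.70 in C and D, 4.88 in E and 6.05 in F. ENSMUST00000151528, with the exon, was listed in B2, C, D and E alone, at 1.40 to 2.44 FPKM.

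For Lrrtm3, ENSMUST00000051615 (1542 nt) was not listed in A and was at 7.83 FPKM in B1 and 4.42 in B2, 8.52 and 11.2 in C and D, 15.1 in E and 15.0 in F, without passing the test (limma adjusted p = 0.0546). ENSMUST00000105439, the full model of 3896 nt, was at 4.25 FPKM in A and at 9.85 and 9.12 in E and F (limma adjusted p = 0.0674 for the trend). ENSMUST00000148712, which overlaps it, was at 10.8 FPKM in A and 1.28 to 3.04 elsewhere, and ENSMUST00000131945 of 545 nt at 10.9 in A and 5.34 to 8.27 elsewhere, so that the level of Lrrtm3 in A came mostly from these models. For Lrrtm4, ENSMUST00000074662 was at 5.42 FPKM in F (95% interval 4.69 to 6.14) and 1.88 to 3.58 elsewhere, and ENSMUST00000147663 at 2.41 in F (2.05 to 2.76) and 3.88 to 4.77 elsewhere, so that F was the only library with the first above the second, though neither trend was called (limma adjusted p = 0.0988 and 0.0737). Another model, ENSMUST00000126005, stayed between 0.982 and 1.44 FPKM. The gene as a whole changed little.

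The other genes of these synapses were taken from 6 lists with 62 genes tested. Of these, 21 were called with a positive and 12 with a negative slope (53.2% called, against 43.7% of all genes). The calls include library A, and no fit without A is given for these genes. Among the other ligands of neurexins, 7 of 15 were called with a positive slope, 2 with a negative slope and 6 did not pass, with a median slope of 0.15 and the same counts under the median of ratios. Nxph4, a neurexophilin that binds long neurexins and 1 of the 4 layer 6b markers above, had the largest range, from 0.0547 FPKM in B1 and 0.0555 in B2 through 0.401 in A, 0.163 in C, 0.335 in D and 6.20 in E to 41.3 in F. Nxph3, of the same family, was at 1.46 FPKM in A, 3.44 and 2.40 in the replicates B1 and B2, 12.4 in C, 19.7 in D, and 51.9 and 123 in E and F. Their slopes of 1.44 ± 0.10 and 1.29 ± 0.07 log2 per segment (SE, limma adjusted p = 0.00152 and 0.00105) were more than 2 times that of Lrrtm2. Nxph4 was under 1 FPKM in A to D and passed the filter only through E and F, and its levels in B1 and B2 lay below the pseudocount of 0.1. As a gene also chosen as a layer 6b marker, its call is no independent support. Adgrl3, a latrophilin, varied least, from 31.3 to 56.3 FPKM.

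Of 22 other postsynaptic adhesion proteins, 5 were called with a positive slope, 6 with a negative slope and 11 not at all, with a median slope of -0.0080, and under the median of ratios 1 was positive and 7 were negative. The 6 include Slitrk2 (-0.02 ± 0.05, with 3.15 FPKM in A and 3.21 in F) and Lrrc4c (-0.05 ± 0.05, with 25.01 in A and 25.1 in F), named after their values were seen, which were higher in all segments between. Slitrk1, a leucine-rich repeat protein, was at 10.95 FPKM in A, 31.4 and 24.4 in B1 and B2, 24.5 in C and 42.6 in E (slope 0.28 ± 0.07). Elfn1 was highest in C at 7.70 FPKM and lowest in F at 2.24. Il1rapl1 varied least, between 2.02 and 2.45 FPKM. Of 6 presynaptic receptors other than neurexins, 1 was called with a positive slope (Gpc4), 1 with a negative slope (Ntng1) and 4 not at all, with a median slope of 0.02. Gpc4, a glypican that binds Lrrtm4, was at 0.896 FPKM in A, 1.35 and 1.07 in B1 and B2 and 2.60 to 3.10 in C to F. Ntng1, which codes for netrin-G1, was highest in C. It was at 2.34 FPKM in A, 8.29 and 6.65 in B1 and B2, 12.4 in C, 11.4 in D, then 4.58 in E and 2.12 in F. Ptprf varied least, from 8.13 to 13.4 FPKM.

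Of 11 genes listed as intracellular partners, 4 were called with a positive and 3 with a negative slope and 4 did not pass. Their median slope was 0.08, and under the median of ratios 3 were positive and 3 negative. The list also holds Mdga1 (-0.19 ± 0.07, called) and Mdga2 (0.27 ± 0.04, called), whose proteins are not intracellular. Gphn, the scaffold of inhibitory synapses, was at 6.42 FPKM in A, 14.8 and 16.1 in B1 and B2 and 22.7 in E. Cask, a scaffold that binds neurexins, was at 5.40 in A, 13.5 and 10.5 in B1 and B2, 18.5 in E and 11.5 in F. Dlg4, the scaffold of excitatory synapses, varied least, from 267 FPKM in C to 443 in B1. Of 6 splicing regulators of neurexins, 3 were called, all with a positive slope, and 3 did not pass, with a median slope of 0.09, and under the median of ratios 1 was positive and 1 negative. Ptbp2 was at 4.61 FPKM in A, 11.2 and 12.8 in B1 and B2 and 22.7 in E. Khdrbs1 was at 6.76 in A, 17.1 and 12.03 in B1 and B2, 15.4 and 15.7 in C and D and 18.9 in F. Nova1 varied least, from 11.3 to 20.2 FPKM. Of the 2 host genes tested, Ctnna2 was called with a positive slope and Ctnna1 did not pass, with a median slope of 0.26.

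**Figure D5:**
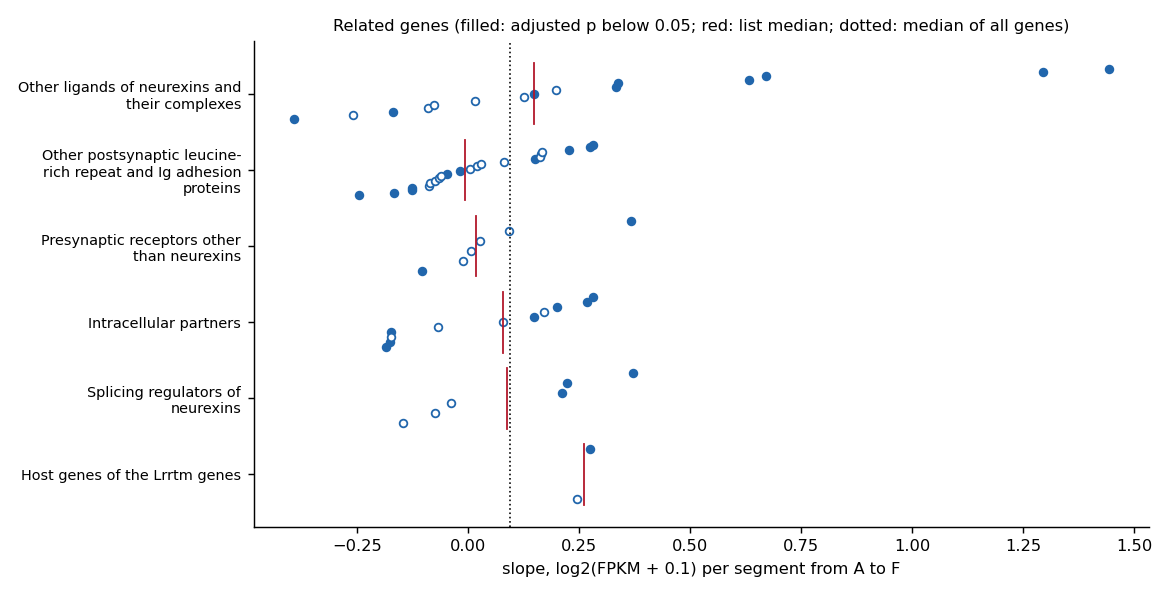
Slope of log2(FPKM + 0.1) per segment from A to F (x axis) for the 62 related genes in 6 lists (y axis), with filled points at an adjusted p below 0.05, a red line at each list's median and a dotted line at the median of all genes tested (0.09). Nxph3 and Nxph4 stand apart at 1.29 and 1.44.

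The genes whose centred log2 profiles over the 7 libraries were nearest to each member were looked up among 12632 named genes. For Lrrtm2 they were Prss23 and Mkln1, at a root mean square difference of 0.15 and 0.18 log2, and only these 2 were within 0.2. For Nrxn2 they were Wfs1 (0.10) and Coq8b (0.14), with 25 genes within 0.2, and for Nlgn1 Lrrc49 (0.06) and Etnppl (0.09), with 56. Nlgn2 was nearest to Shank2 (0.06), a scaffold of excitatory synapses, and Lrp1 (0.08), and Nlgn3 to Lhfpl4 (0.05), a protein of inhibitory synapses, and Gcc1 (0.06). The nearest genes were Fam98b (0.05) and Pdk1 (0.05) for Nrxn3, Det1 (0.14) and Nacc2 (0.14) for Lrrtm1, Mppe1 (0.08) and Gm8258 (0.09) for Lrrtm3 and Tmem222 (0.04) and Zscan12 (0.05) for Lrrtm4. Nrxn3 and Lrrtm4 had 1669 and 1420 genes within 0.2, so their courses were common ones. All profiles share the same libraries and their scale.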

How the data were processed

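As the authors describe, paired reads were mapped to mm9 with TopHat 1.0.13 and Cufflinks 0.8.3 estimated FPKM, as deposited with a 95% interval, for Ensembl release 57 genes and transcripts. The fraction values deposited for transcripts (share of a locus, and abundance relative to the main transcript, never below 5%) and the deposited coverage, an estimated read depth, were used to find the limit of listing and to estimate the depth of 31.3 to 74.9 M fragments per library. Features not listed in a library were set to 0. Tables of de novo models were not used.

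FPKM of genes listed at more than 1 place were summed, and transcripts were assigned to the 9 genes by position and by their sum to the gene's FPKM. Symbols, GC content, exons and sequences came by identifier from GENCODE M21 (GRCm38), and mm9 positions were not converted. Genes and transcripts with a mean of at least 1 FPKM were tested with limma 3.58.1 (R 4.3.3) on log2(FPKM + 0.1), as linear and quadratic trend over 6 segments and as deep against upper libraries, with Benjamini-Hochberg adjustment over the whole table. Apart from B1 and B2 the residual spread comes from libraries of different segments. The p-values thus set a trend against the scatter of segments around it, and not against variation between mice. For deep against upper libraries, the spread includes the differences between segments of a side. Exact permutation tests used scipy 1.17.1. The fits were tested on simulated data with known changes.

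The members, gene lists and tests were chosen with earlier results of these data known. Named are all members with their transcripts of at least 1 FPKM on average, for each member the 2 nearest profiles, and from each related list the 2 genes with the largest and the 1 with the smallest fold between libraries. There were 42 planned and 7 added alternatives, on the pseudocount (0.01, 1), the filter, the scale, GC content, length, B1 and B2 and single libraries. The added ones, on transcript length, on A with B2 and on the long transcripts in A, were chosen after seeing the data.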

Additional observations from a re-analysis of the deposited data

How the results depend on the processing

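Lrrtm2 kept its trend call and its rising slope in all 20 alternatives (slopes of 0.40 to 0.73, adjusted p of 0.00063 to 0.0279). Nrxn2 had a negative slope in all 20 (-0.44 to -0.14) and lost its call without A, without A and B2, and with a linear trend alone. Nlgn1 was called in 19 of 20, all but the linear trend alone, and its slope near 0 ranged from -0.20 without A and B2 to 0.13 without F. The slope was -0.17 without A, 0.0014 without B2 and 0.13 without F, as was that of its transcript ENSMUST00000075054. Nlgn2 was called only without A and B2 (slope -0.22), and Nrxn2 was then also called lower in deep libraries (-0.71). The causes were not tested.
The number of genes with a trend, 5749, was 2486 with a linear trend alone and 2737 without A and B2, and 1686 to 7933 when 1 library was left out, lowest without A. The number of genes that differed between deep and upper libraries, 66, was 100 with a mean of at least 0.1 FPKM, 5 with B1 and B2 averaged, 122 among protein-coding genes, 1064 without A and B2, and 7 to 117 when 1 library was left out. The number of transcripts with a trend, 3700, was 0 with a mean of at least 0.1 FPKM (11826 at an unadjusted p below 0.05), 15 with no filter, 1246 under the median of ratios, 5586 with B1 and B2 averaged, 828 with a linear trend alone, 0 without A and B2 (5692 at an unadjusted p below 0.05), and 0 to 6507 when 1 library was left out, with limma throughout.
The Nrxn2 long share differed by 12.7 to 22.55 points (13.99 to 22.55 with 1 library left out) between deep and upper libraries in every alternative, and that of Nrxn3 by 7.40 to 23.1 points, except for -2.21 points without A and B2. No long Nrxn2 transcript was listed in all 7 libraries, so that alternative gave no value for Nrxn2. Intervals widened 2 times left 103 of 136 separated pairs, and the highest segment stayed the same for 6 to 9 of the 9 members, without E for 6. No paired analysis was possible because B1 and B2 were the only replicates and no other group shares their numbers. In A, transcripts of Nrxn2 under 14.2 FPKM, 5% of its main transcript, are not listed.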
